A study of Mus musculus with 6 samples.

Results

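The integrin and laminin subunit genes were described in healing mouse skin on the third day after wounding, in 3 male wild-type (WT) mice and 3 male mice heterozygous for the transcription factor gene Foxo1 (FoxO1 +/-), all of strain C57/BL6. Members were the genes whose symbol is Itga or Itgb followed by a number or letter, or Lama, Lamb or Lamc followed by a number, which gives 37 symbols. A probe was matched for 35 of them, out of 20130 genes with a matched probe in all, and 34 passed the filter on dim probes, out of 16408. Itga10 and Itgae had no matched probe and were not analysed here, and the probe of Itgad was well above background on only 1 array of each genotype. Each mouse received 4 full-thickness excisional wounds of 4 mm on the back and no other treatment, so that wounding is common to both genotypes. The wounds were taken with a wider punch of 6 mm, so the tissue includes a rim of wound-edge skin. RNA from the wounds was hybridised to 1-colour Agilent arrays, 1 array per labelled mouse number. The arrays used here hold no unwounded skin, no other day and no sorted cells, and the sources used here do not give how the Foxo1 allele was made or whether the wounds of a mouse were pooled. The design text of the series speaks of 3 independent experiments, and nothing further says how the RNA of the arrays was made separate. Every p-value here therefore measures only the spread between arrays.

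Integrins are transmembrane receptors made of 1 α and 1 β chain that tie the cytoskeleton to the extracellular matrix or to other cells, and laminins are trimers of an α, a β and a γ chain that build the basement membrane. In skin, basal keratinocytes are anchored through hemidesmosomes, in which the integrin of Itga6 and Itgb4 binds laminin that holds the chains of Lama3 and Lamb3. Keratinocytes at a wound edge also lay down this laminin as they crawl over the wound bed. Leukocytes enter the wound with the integrins built on Itgb2 and on Itga4, platelets aggregate through Itga2b and Itgb3, and fibroblasts, vessels and muscle grip collagen, fibronectin and laminin through further α chains that pair with Itgb1. On this basis the members were set in 5 classes by their main source in skin, namely 9 epithelial, 8 leukocyte, 2 platelet, 9 stromal and 9 shared or developmental subunits, of which 9, 6, 2, 8 and 9 were kept. In RNA from whole wounds, fewer cells of a type and less RNA per cell cannot be told apart.

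All levels are log2 processed signal relative to the 75th percentile of the array, so that 0 is the level of that percentile, and the levels of different probes are not set against each other. Between 64.3% (FoxO1 +/- replicate 3) and 71.9% of spots on an array were well above background, and no spot was saturated. By the array barcodes, FoxO1 +/- replicate 1 was in slide row 1, as were all 3 WT arrays, and the other FoxO1 +/- arrays were in row 2. Whether all 6 arrays shared 1 slide and 1 scan was not checked here. Foxo1 itself read 1.31, 1.04 and 1.51 in WT and 0.38, 0.50 and 0.30 in FoxO1 +/- with one probe and 2.04, 1.81 and 2.32 in WT and 1.54, 1.69 and 1.49 in FoxO1 +/- with the other. All 3 FoxO1 +/- arrays lay below all 3 WT arrays with both probes, with differences of -0.89 (SE 0.14) and -0.48 (SE 0.15) on the log2 scale. The probe with -0.48, the brighter, stands for the gene, and its adjusted p over all genes was 0.65 in limma. Foxo1 itself thus did not reach the adjusted p under 0.05 asked of the subunits. Markers of the skin were measurable: all 6 basal keratinocyte, all 7 fibroblast and all 7 endothelial markers were kept.

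No integrin or laminin subunit differed between the genotypes past the threshold. Of the 34 subunits, 0 had an adjusted p under 0.05 in the limma fit with Benjamini-Hochberg adjustment over all genes, where 1 of all genes, or 0.00609%, did. The smallest adjusted p of a subunit was 0.781. At an unadjusted p under 0.05, 1 subunit was called, Lama1, which was lower. Over all genes 6.25% were called, 2.83% lower and 3.43% higher. The arrays of the genotypes overlapped in all but 2 of 34 subunits. Itgav had all FoxO1 +/- arrays above all WT arrays and Lama1 had all of them below, while 11.5% of all genes did not overlap, 6.91% higher and 4.56% lower. The FoxO1 +/- mean was above the WT mean in 20 subunits and below it in 14, beside 53.7% above over all genes. Under quantile normalization this split became 15 above and 19 below. The count of called subunits changed with every array left out. It was 0 without any 1 of WT replicates 1 and 3 and FoxO1 +/- replicates 1, 2 and 3. In those fits 4.13% to 6.61% of all genes were called. Without WT replicate 2 it was 5 (Lama1, Lama5, Lamc3, Itga5 and Itga8), beside 9.14% of all genes in that fit. With slide row as a block, the differences rest on FoxO1 +/- replicate 1 alone, so no count is given. The median difference was 0.031 over the subunits and 0.011 over all genes.

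The precision is that of the fit with no covariate. Its intervals do not cover a difference between slide rows, since row 2 holds no WT array. The 95% interval of the difference lay within a 2-fold change in either direction for 33 of 34 subunits, or 97.1%, beside 91.2% of all genes. Lamc3 was the exception, at -1.23 to 0.45 on the log2 scale. These intervals are for the brightest kept probe of each gene. For Itga1 they do not hold with its second probe, which differed by 1.30 (SE 0.24), more than 2-fold. Within a 1.5-fold change lay 19 of 34 subunits, or 55.9%, beside 74.6% of all genes. The spread between arrays of 1 genotype was wider for the subunits than for the median gene, with a median SD of 0.25 against 0.14. The median size of the genotype difference, sign left aside, was 0.081 against 0.086. By class, the median difference was -0.045 over the epithelial, -0.032 over the leukocyte, 0.068 over the stromal and 0.045 over the shared subunits. Within slide row 1, where only FoxO1 +/- replicate 1 meets the WT arrays, these medians were 0.049, 0.19, 0.035 and 0.019. With row as a block they were necessarily the same, since row 2 holds no WT array.

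**Figure D1:**
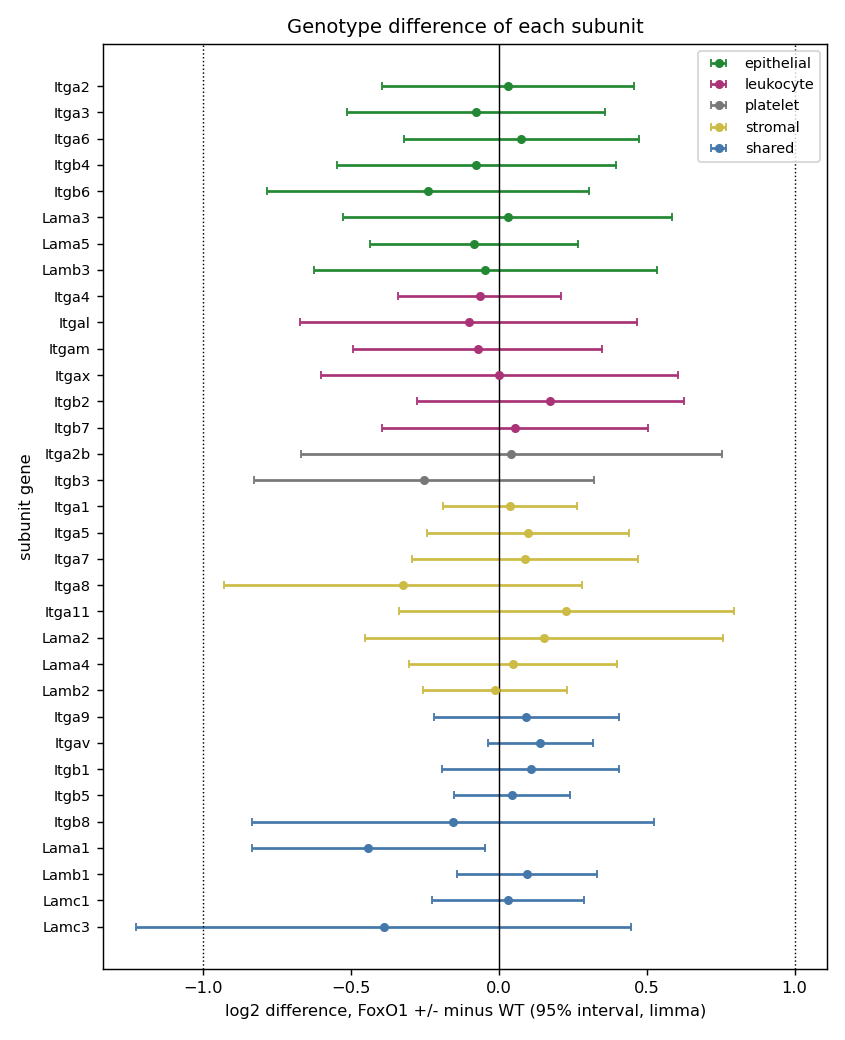
Log2 difference of each kept subunit, FoxO1 +/- minus WT (horizontal axis), for 33 subunits on the vertical axis; points are limma estimates from 3 arrays per genotype, bars are 95% intervals, colours mark the 5 classes and dotted lines mark a 2-fold change. Every interval drawn but that of Lama1 includes 0, that of Lama1 ends at -0.048, and only that of Lamc3 crosses a 2-fold line.

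The keratinocyte laminin chains Lama3 and Lamb3 were high on the same arrays and low on the same arrays, and these arrays did not divide by genotype. Lama3, the α chain that binds the integrins of basal keratinocytes, read 2.80, 2.73 and 2.37 on WT replicates 1, 2 and 3 and 2.84, 2.19 and 2.95 on FoxO1 +/- replicates 1, 2 and 3. Lamb3, the β chain, read 3.42, 3.43 and 3.12 in WT and 3.44, 2.76 and 3.64 in FoxO1 +/-, with replicates 1, 2 and 3 of each genotype in order. In both genes FoxO1 +/- replicate 3 was the highest array, FoxO1 +/- replicate 2 the lowest and WT replicate 3 the second lowest, so the FoxO1 +/- arrays spanned the WT arrays on both sides. The orders of the 6 arrays in Lama3 and Lamb3 differed only by the exchange of WT replicates 1 and 2. The genotype differences were 0.030 (SE 0.23) for Lama3 and -0.045 (SE 0.24) for Lamb3. The adjusted p was 0.998 and 0.998 in limma, and the 95% intervals were -0.53 to 0.59 and -0.62 to 0.53. Both signs turn on single arrays: without FoxO1 +/- replicate 2 the differences were 0.26 and 0.21, and without FoxO1 +/- replicate 3 they were -0.11 and -0.22.

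The sequence upstream of the first of 2 Lamb3 starts in the RefSeq table is shown as the stretch of DNA beside one of these chains, in lower case throughout because neither motif searched was found in it. It lies on chromosome 1, chr1:193301744-193301993 on the plus strand of RefSeq GRCm38.p6, and is given 5′ to 3′.
Lamb3: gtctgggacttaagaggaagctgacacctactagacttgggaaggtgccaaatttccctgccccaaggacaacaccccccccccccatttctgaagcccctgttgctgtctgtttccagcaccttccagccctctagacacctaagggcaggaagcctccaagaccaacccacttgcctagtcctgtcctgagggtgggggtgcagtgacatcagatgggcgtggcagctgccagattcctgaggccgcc
The motifs searched on both strands were the forkhead (FOXO) motif GTAAACA and the AP-1 motif TGANTCA, in windows from 250 bases before to 50 bases after a gene start. Of the 37 members, 23 had a window in the RefSeq table, 26 windows in all. The FOXO motif was in 0 of these 26 windows and in 3.65% of all 32817, and the AP-1 motif was in 3 of the 26 (of Itga3, Itga9 and Itgax), or 11.5%, and in 7.81% of all windows. A missing motif says only that these letters are not in this window.

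The receptor chains Itga6, Itgb4 and Itga3 of that laminin were lowest on the same array as its chains, while Itgb1 was lowest on WT replicate 3. Itga6, the α chain of the hemidesmosome integrin, read 5.33, 5.07 and 4.98 in WT and 5.16, 4.96 and 5.49 in FoxO1 +/-. Itgb4, its β chain with a long cytoplasmic tail that reaches the keratin network, read 3.14, 2.64 and 2.63 in WT and 2.79, 2.44 and 2.96 in FoxO1 +/-. Itga3, whose pair with Itgb1 is the laminin receptor of moving keratinocytes, read -1.28, -1.66 and -1.72 in WT and -1.74, -1.83 and -1.32 in FoxO1 +/-. FoxO1 +/- replicate 2 was the lowest array for all 3 genes, and the highest was FoxO1 +/- replicate 3 for Itga6 and WT replicate 1 for Itgb4 and Itga3. The genotypes overlapped in each. Differences were 0.077 (SE 0.16), -0.076 (SE 0.19) and -0.078 (SE 0.18), with adjusted p = 0.992, 0.995 and 0.992 in limma. Itgb6, the partner of αv in an integrin that keratinocytes make at wound edges and that activates TGF-β, read -0.62, -1.38 and -1.06 in WT and -0.97, -1.48 and -1.33 in FoxO1 +/-. Its difference was -0.24 (SE 0.22), the lowest of the epithelial class, with WT replicate 1 the highest array and overlap of the genotypes. A second probe, well above background on only 2 of the 3 FoxO1 +/- arrays, gave -0.29. The Itgb6 difference was -0.040 without WT replicate 1 and turned to 0.049 within slide row 1. Itga2, an α chain of a collagen receptor, had levels between -2.99 (FoxO1 +/- replicate 2) and -2.35 (FoxO1 +/- replicate 3) and a difference of 0.032 (SE 0.18). Lama5, the α chain of the second epidermal laminin, read 1.77, 1.25 and 1.64 in WT and 1.43, 1.56 and 1.43 in FoxO1 +/- and differed by -0.084 (SE 0.14). Here WT replicate 2 was the lowest array and WT replicate 1 the highest.

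**Figure D2:**
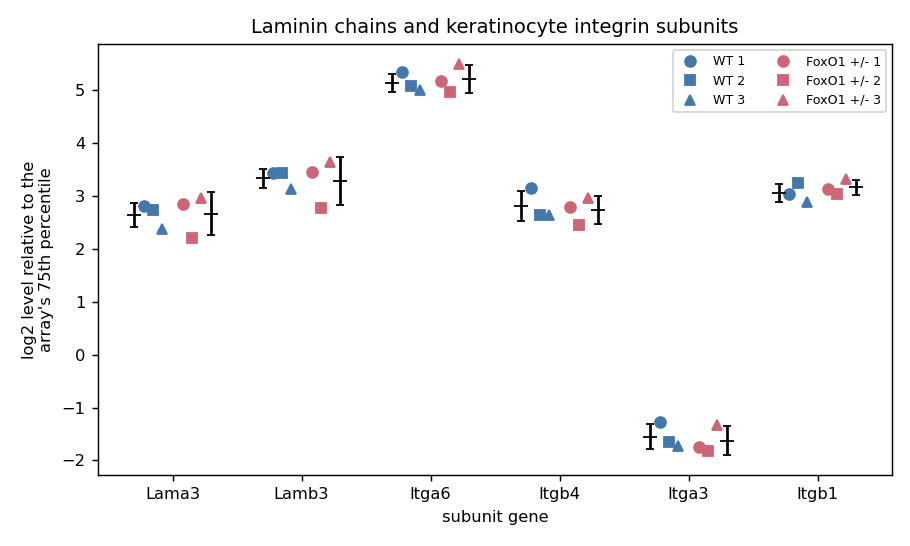
Log2 level relative to the 75th percentile of the array (vertical axis) of Lama3, Lamb3, Itga6, Itgb4, Itga3 and Itgb1 (horizontal axis); each symbol is 1 array, blue for WT and red for FoxO1 +/-, with shape for the replicate number, and the black marks are the mean ± SD of 3 arrays. In all genes drawn but Itgb1 the red square, FoxO1 +/- replicate 2, is the lowest array; levels are to be compared within a gene.

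Most epithelial subunits had the same lowest array, a feature picked after the values were seen, while the order of the other arrays differed between genes. FoxO1 +/- replicate 2 was the lowest of the 6 arrays in 8 of 9 epithelial subunits, or 88.9%, while it was the lowest in 11.6% of all genes. The highest array was WT replicate 1 in 4 and FoxO1 +/- replicate 3 in 5. The class median, taken over each gene minus its mean over 6 arrays, was 0.16, -0.067 and -0.13 in WT and 0.14, -0.34 and 0.27 in FoxO1 +/-. The markers of basal keratinocytes (Krt5, Krt14, Krt15, Trp63, Col17a1 and Dst, all 6 kept) had a median of 0.24, 0.0018 and -0.0065 in WT and 0.060, -0.33 and 0.068 in FoxO1 +/-, and FoxO1 +/- replicate 2 was their lowest array in 4 of 6. The 5 kept suprabasal markers of 6 listed had 0.17, -0.33 and -0.028 in WT and -0.025, -0.11 and 0.33 in FoxO1 +/-, and FoxO1 +/- replicate 3 was their highest array in 4 of 5. The median of the hair follicle markers, 5 kept of 7, stood apart on WT replicate 1. It was 4.42, -1.06 and -0.045 in WT and -1.10, -0.76 and -0.76 in FoxO1 +/-. By gene, WT replicate 1 was the highest array in 4 of the 5, while Msx2 was highest on WT replicate 2. For the hair follicle markers Krt27, Krt35 and Krt71, not every array was well above background, so their low values have no firm level. The part of keratinocyte or hair follicle content in the epithelial levels was not tested. No epithelial subunit passed either threshold without these arrays: without FoxO1 +/- replicate 2 the class median difference was 0.20 and without WT replicate 1 it was 0.058, and no subunit of any class was called in either fit.

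**Figure D3:**
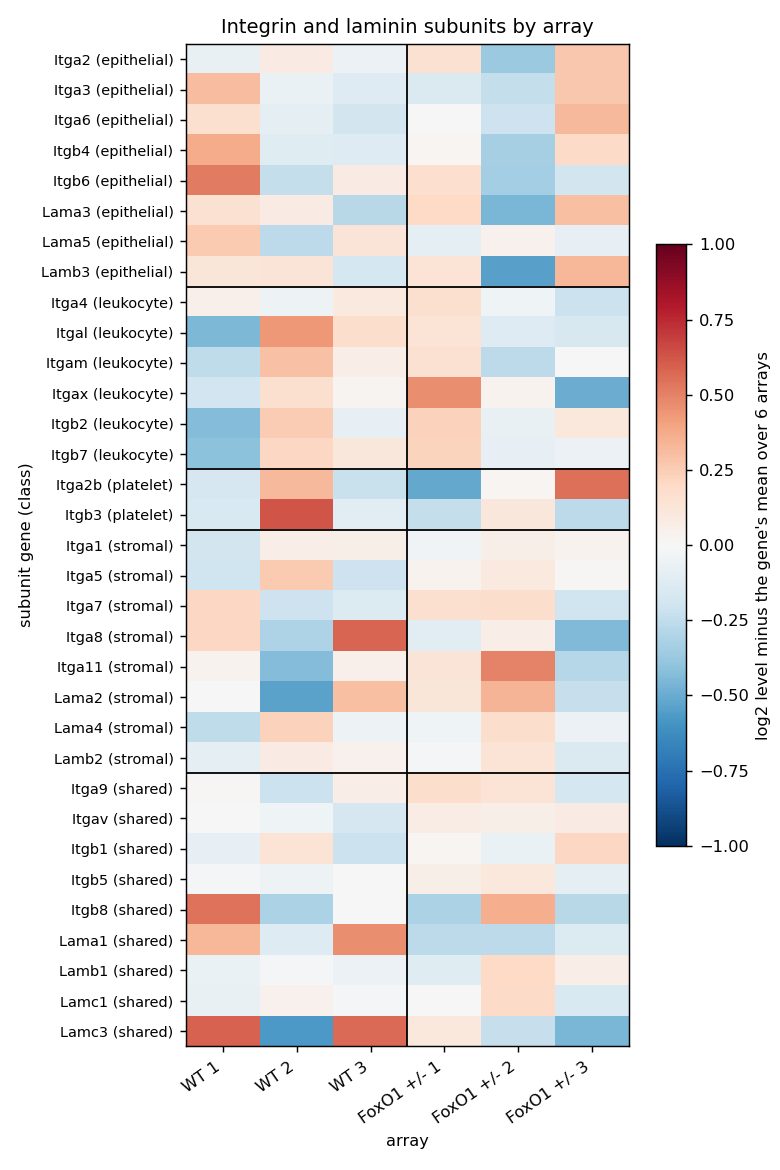
Log2 level of 33 kept subunits (vertical axis, grouped by class) on each of the 6 arrays (horizontal axis), minus the mean of the gene over 6 arrays, as colour from blue (below the mean) to red (above); the vertical line divides WT from FoxO1 +/-. Every epithelial subunit drawn but Lama5 has its lowest value on FoxO1 +/- replicate 2, and only Lama1 and Itgav separate the genotypes.

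None of the 6 kept leukocyte subunits passed the test. WT replicate 1 was the lowest array in 3 of the 6, beside 15.9% of all genes. WT replicate 2 was the highest in 3, beside 21.9% of all genes, and only Itgb2 and Itgal had both. Itgb2, the β chain shared by the main leukocyte integrins, read 3.30, 3.99 and 3.66 in WT and 3.97, 3.66 and 3.84 in FoxO1 +/-. Itgam, the α chain of the myeloid integrin Mac-1 of neutrophils and macrophages, read 3.96, 4.50 and 4.27 in WT and 4.36, 3.95 and 4.21 in FoxO1 +/-. Itgal, the α chain of LFA-1 on lymphocytes and myeloid cells, read -0.80, 0.082 and -0.17 in WT and -0.21, -0.47 and -0.51 in FoxO1 +/-. In these 3 genes WT replicate 2 was the highest array, WT replicate 1 was the lowest for Itgb2 and Itgal, and FoxO1 +/- replicate 2 was lowest for Itgam, only just below WT replicate 1. The FoxO1 +/- arrays lay within the WT range in Itgb2 and Itgal. Differences were 0.17 (SE 0.19), -0.071 (SE 0.17) and -0.10 (SE 0.23), with adjusted p = 0.955, 0.994 and 0.992 in limma. Itga4, whose integrins bind VCAM-1 on activated vessels, read 1.85, 1.75 and 1.90 in WT and 1.96, 1.75 and 1.59 in FoxO1 +/- and differed by -0.065 (SE 0.11), with FoxO1 +/- replicate 1 highest and FoxO1 +/- replicate 3 lowest. In Itga4 both extremes were thus FoxO1 +/- arrays, and Itgax shared this order of extremes. Itgax, a dendritic cell and macrophage subunit, ran from 1.76 to 2.72, both on FoxO1 +/- arrays, with a difference of 0.0013 (SE 0.25). Itgb7, which pairs with Itga4 on lymphocytes, ran from 2.51 on WT replicate 1 to 3.14 on FoxO1 +/- replicate 1 and differed by 0.055 (SE 0.19).

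The class median by array was -0.33, 0.23 and 0.082 in WT and 0.19, -0.079 and -0.11 in FoxO1 +/-, so WT replicate 1 was low and WT replicate 2 high. Neutrophil markers, 5 kept of 6, had their lowest median on WT replicate 1 and their highest on WT replicate 2. The medians were -0.28, 0.41 and -0.081 in WT and -0.011, -0.13 and 0.14 in FoxO1 +/-. By gene, WT replicate 1 was lowest in 3 of the 5 and WT replicate 2 highest in 2, and only Cxcr2 had both. Other leukocyte lists had other extremes. The 5 kept macrophage markers had -0.046, -0.057 and -0.057 in WT and 0.068, 0.14 and -0.030 in FoxO1 +/-, highest on FoxO1 +/- replicate 2. T cell markers, 6 kept of 7, had -0.15, -0.082 and 0.43 in WT and 0.068, -0.21 and -0.22 in FoxO1 +/-, highest on WT replicate 3 and lowest on FoxO1 +/- replicate 3. Dendritic cell markers, 5 kept of 6, had -0.074, -0.11 and 0.078 in WT and 0.24, 0.16 and -0.20 in FoxO1 +/-. Their median was highest on FoxO1 +/- replicate 1 and lowest on FoxO1 +/- replicate 3, the extremes of Itga4 and Itgax. By gene, FoxO1 +/- replicate 1 was highest in 3 of the 5. FoxO1 +/- replicate 3 was lowest in 2, as was WT replicate 2, and only Cd209a had both extremes of the median. The part of leukocyte number in the leukocyte subunit levels was not tested. The platelet subunits had wide spreads and no call: Itga2b, the platelet α chain, ran from -3.66 on FoxO1 +/- replicate 1 to -2.60 on FoxO1 +/- replicate 3 and differed by 0.043 (SE 0.29). Itgb3, its partner, which also pairs with αv in vessels and osteoclasts, differed by -0.25 (SE 0.24), with its highest level on WT replicate 2; without that array the difference was 0.00040.

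**Figure D4:**
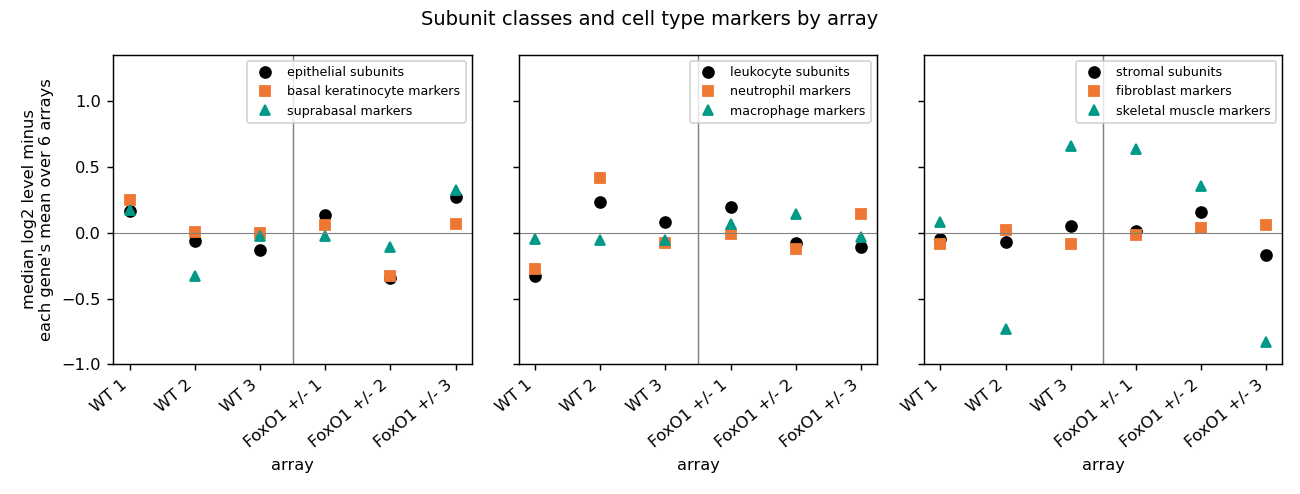
Median log2 level minus the mean of each gene over 6 arrays (vertical axis) on each array (horizontal axis) for the epithelial, leukocyte and stromal subunits (black circles) beside marker lists of the cell types that make them (orange squares and green triangles); the vertical line divides WT from FoxO1 +/-. FoxO1 +/- replicate 2 is lowest for the epithelial subunits and basal keratinocyte markers, WT replicate 1 for the leukocyte subunits and neutrophil markers, and skeletal muscle markers are low on WT replicate 2 and FoxO1 +/- replicate 3.

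Of the stromal subunits, 6 had a higher and 2 a lower mean in FoxO1 +/-, and none passed the test. Itga5, the α chain of the classic fibronectin receptor of fibroblasts and vessels, read -0.42, 0.042 and -0.42 in WT and -0.18, -0.12 and -0.20 in FoxO1 +/- and differed by 0.099 (SE 0.14). Lama4, the α chain of vessel and muscle basement membranes, read 2.88, 3.37 and 3.08 in WT and 3.09, 3.31 and 3.08 in FoxO1 +/- and differed by 0.048 (SE 0.14). Both genes were highest on WT replicate 2, lowest on a WT array as well, and had every FoxO1 +/- array inside the WT range. Lamb2, a β chain of vessel and nerve laminins, differed by -0.013 (SE 0.10) and Itga7, the muscle laminin receptor, by 0.089 (SE 0.16). Itga8, a receptor for nephronectin on contractile cells, had the lowest difference of the class, -0.32 (SE 0.25), and Itga11, a collagen receptor of fibroblasts, the highest, 0.23 (SE 0.23). Their arrays spanned 1.02 and 0.93 log2 units. Lama2, the α chain of the muscle and nerve laminin, read 2.39, 1.84 and 2.68 in WT and 2.50, 2.72 and 2.15 in FoxO1 +/-, with WT replicate 2 lowest and FoxO1 +/- replicate 2 highest, and differed by 0.15 (SE 0.25).

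A pattern seen in the array values, chosen after they were seen, joined Lama2 to other subunits. WT replicate 2 and FoxO1 +/- replicate 3 were the lowest arrays of all in 8 of 34 subunits, or 23.5%, and in 10.1% of all genes. The 8 were Itga4, Itga7, Itga8, Itga9, Itga11, Itgb5, Lama2 and Lamc3. The skeletal muscle markers Acta1, Ckm, Myh4, Tnnt3 and Mylpf, all 5 kept, had their lowest medians on the same arrays. The medians were 0.083, -0.73 and 0.66 in WT and 0.63, 0.35 and -0.83 in FoxO1 +/-. Myh4 by itself was lowest on WT replicate 1. Fibroblast markers, all 7 kept, stayed between -0.088 and 0.061. Adipocyte markers, all 5 kept, had a median of 0.070, -0.93 and -0.24 in WT and 0.15, 0.44 and 0.55 in FoxO1 +/-, lowest on WT replicate 2. The part of muscle or fat content in these subunit levels was not tested.

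Itga1, the α chain of a collagen receptor on fibroblasts, smooth muscle and some T cells, gave different answers with its pair of probes. The brighter probe, A_52_P459929, which stands for the gene above, read -0.62, -0.37 and -0.37 in WT and -0.47, -0.37 and -0.40 in FoxO1 +/- and differed by 0.038 (SE 0.093), with overlap of the genotypes. The second probe, A_52_P518922, read -1.88, -1.56 and -2.03 in WT and -0.89, -0.63 and -0.031 in FoxO1 +/- and was well above background on all 6 arrays. With the second probe every FoxO1 +/- array was above every WT array, and FoxO1 +/- replicate 3 was the highest. Its difference was 1.30 (SE 0.24), and the adjusted p over all kept probes was 0.267 in limma, so it passed the unadjusted threshold only. Of the 45 kept member probes, 0 passed the adjusted threshold, 2 had an unadjusted p under 0.05 and 3 did not overlap, beside 0.0237%, 6.71% and 12.8% of all 37898 kept probes. Without any 1 array the difference of the second probe was 1.06 to 1.49, and within slide row 1 it was 0.93. The gene Pelo lies inside the span of Itga1 in the RefSeq gene table, and its own probe differed by 0.090 (SE 0.10). Which transcript region each Itga1 probe reads is not given in the sources at hand, so whether the gene or one of its transcripts differs was not tested. With both probes averaged, Itga1 differed by 0.67 (SE 0.14), at an unadjusted p under 0.05 and an adjusted p of 0.418 in limma. Of 10 subunits with several kept probes, 6 had probes of one sign and 4 did not (Itgam, Itgav, Itgb1 and Lama3), and besides Itga1 the largest gap between probes of a gene was 0.22, in Itgav.

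**Figure D5:**
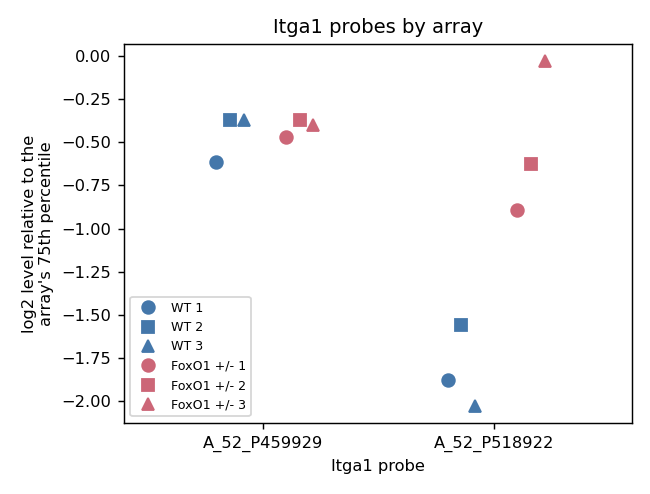
Log2 level relative to the 75th percentile of the array (vertical axis) for the Itga1 probes A_52_P459929 and A_52_P518922 (horizontal axis); each symbol is 1 array, blue for WT and red for FoxO1 +/-. The genotypes overlap with the first probe, and with the second all 3 FoxO1 +/- arrays lie above all 3 WT arrays; levels are to be compared within a probe.

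The subunits whose arrays did not overlap between genotypes, Lama1 and Itgav, were both of the shared and developmental class, and the Lama1 difference was the largest of the 34 in size. Lama1, the α chain of embryonic basement membranes, read -1.59, -2.05 and -1.46 in WT and -2.19, -2.19 and -2.06 in FoxO1 +/-. All FoxO1 +/- arrays were below all WT arrays, with WT replicate 2 close to the FoxO1 +/- arrays. Lama1 was -1.70 ± 0.31 in WT and -2.14 ± 0.073 in FoxO1 +/- (SD, n = 3 each), a difference of -0.44 (SE 0.16) with a 95% interval of -0.84 to -0.048 and adjusted p = 0.781 in limma. Leaving out any 1 array gave -0.62 to -0.32, and the unadjusted p stayed under 0.05 only without WT replicate 2. Within slide row 1 the difference was -0.48. Itgav, the αv chain of the receptors for vitronectin, fibronectin and latent TGF-β, read 0.14, 0.097 and -0.027 in WT and 0.21, 0.20 and 0.22 in FoxO1 +/-. The FoxO1 +/- arrays were all above the WT arrays and close together. The difference was 0.14 (SE 0.073), with adjusted p = 0.845 in limma. A second Itgav probe gave -0.074 with overlap. Itgb5 and Itgb8, which pair with αv, differed by 0.045 (SE 0.080) and -0.15 (SE 0.28), and Itga9, a tenascin receptor subunit, by 0.093 (SE 0.13).

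Itgb1, the β chain shared by the largest group of matrix receptors, read 3.02, 3.24 and 2.89 in WT and 3.12, 3.04 and 3.31 in FoxO1 +/-. WT replicate 3 was the lowest array and FoxO1 +/- replicate 3 the highest, with overlap. The difference was 0.11 (SE 0.12) with a 95% interval of -0.19 to 0.41 and adjusted p = 0.962 in limma, and a second probe gave -0.070. Lamb1 and Lamc1, the β and γ chains of most laminins outside the hemidesmosome, had ranges of 0.32 and 0.35 log2 units over the 6 arrays. The median range was 0.63 over the subunits and 0.38 over all genes. Lamb1 read 4.34, 4.39 and 4.35 in WT and 4.29, 4.61 and 4.47 in FoxO1 +/- and differed by 0.095 (SE 0.097). Lamc1 read 4.59, 4.71 and 4.65 in WT and 4.67, 4.86 and 4.51 in FoxO1 +/- and differed by 0.030 (SE 0.11). FoxO1 +/- replicate 2 was the highest array in both genes, while it was the lowest in Lama3 and Lamb3, and the other arrays of both genotypes overlapped. Lamc3, a laminin γ chain, had the widest spread of the subunits, from -2.52 to -1.35, and a difference of -0.39 (SE 0.34).

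Partners of these receptors and matrix proteins, taken from 5 lists, did not pass the adjusted threshold either, and the 3 genes of smallest p are named per list. Their counts are to be read against 53.7% of all genes with a higher mean in FoxO1 +/- and 6.25% at an unadjusted p under 0.05, 2.83% lower and 3.43% higher. Of 9 hemidesmosome and anchoring partners, 3 had higher and 6 lower means in FoxO1 +/-, with a median of -0.18 and 0 at an unadjusted p under 0.05. Fermt1, the keratinocyte kindlin that activates integrins, differed by -0.57 (SE 0.24). The Fras1-related matrix proteins Frem1 and Frem2 differed by -0.41 (SE 0.33) and -0.19 (SE 0.17). Of 16 other basement membrane genes, 11 were higher and 5 lower, with a median of 0.096 and 1 called at the unadjusted threshold, the share over all genes. That gene was Ntn4, a laminin-related netrin, lower at -0.69 (SE 0.17, adjusted p = 0.551) in limma. Ntn4 read -3.30, -3.05 and -3.46 in WT and -4.20, -4.03 and -3.65 in FoxO1 +/-, with all FoxO1 +/- arrays below all WT arrays. Hspg2, which encodes perlecan, differed by 0.22 (SE 0.098) without overlap, and Col15a1, a collagen chain of vessel and muscle basement membranes, by 0.15 (SE 0.088).

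Of 5 laminin receptors outside the integrin family, 1 was higher and 4 lower, with a median of -0.20 and 0 called at the unadjusted threshold. The syndecans Sdc2 and Sdc1 differed by -0.20 (SE 0.10) and -0.23 (SE 0.18) and Bcam, a receptor for Lama5, by -0.22 (SE 0.18). Of 21 kept integrin ligands, 14 were higher and 7 lower, with a median of 0.083. Icam2, an endothelial ligand of leukocyte integrins, differed by 0.21 (SE 0.073, adjusted p = 0.742) in limma and was the 1 called, higher. Ltbp1, which stores latent TGF-β, and Ccn2, a matricellular protein, differed by -0.32 (SE 0.14) and -0.25 (SE 0.12). The 7 endothelial markers, of which Icam2 is not one, all had higher means in FoxO1 +/-, with a median difference of 0.16 and medians by array of -0.10, -0.22 and -0.022 in WT and -0.057, 0.11 and 0.17 in FoxO1 +/-. Their part in the Icam2 difference was not tested. Of 30 integrin activation and adhesion adaptors, 17 were higher and 13 lower, with a median of 0.028. Tns4, a tensin of epithelial cells, differed by -0.48 (SE 0.14, adjusted p = 0.65) in limma and was the 1 called lower. With 1 called higher as well, the adaptors were near the share over all genes. Cav1, the caveolin of endothelium and fat, was the 1 called higher at 0.29 (SE 0.12, adjusted p = 0.798) in limma, and Parvg, a leukocyte parvin, differed by 0.20 (SE 0.096). All 5 adipocyte markers had higher means in FoxO1 +/-, with a median difference of 0.83, 3 of them at an unadjusted p under 0.05 and 3 without overlap. Their part and that of the endothelial markers in the Cav1 difference was not tested.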

How the data were processed

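Wound RNA from 3 WT and 3 FoxO1 +/- mice was measured on 1-colour Agilent arrays. The deposited files hold scanner intensity per spot, extracted by the authors with Feature Extraction 10.7.1.1 per the file headers (9.1 per the submitters' processing notes). The value table deposited with the series holds the same processed intensity rounded, with no log scale or centring: all 59305 non-control spots of every array matched within 0.6%.

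Log2 processed signal was centred on the 75th percentile of each array. Spots of a probe were averaged without outlier-flagged spots, control spots were left out, and a probe was kept where all arrays of 1 genotype or both had it well above background. Probes were named through the RefSeq gene table by accession (26582 of 55681 probes), and the brightest kept probe stood for a gene. Genotypes were compared by lmFit and eBayes of limma 3.58.1 (two-sided, no covariate, R 4.3.3), and p-values were adjusted by Benjamini-Hochberg over 16408 genes or 37898 probes. Normexp, an alternative with offset 50, used the median signal because the files used here have no mean signal column. The fit was tested on simulated data with 100 genes changed 2-fold and 100 changed 4-fold: 81% and 98% were called, with 5 false calls. The simulated noise was independent for each gene, with no spread shared by the genes of an array. These shares therefore do not give the power to find such changes in the wounds.

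Members, classes and lists were chosen with earlier results of these data known. Of the kept subunits, 1 is counted in its class but not reported here by name. Named were the core epithelial, laminin and leukocyte subunits, every subunit without overlap or at an unadjusted p under 0.05, and the 3 genes of smallest p in each pathway list; other subunits are given by difference or range. Alternatives covered background correction, normalization, the filter, probe averaging, the value table, replicate and slide row blocks and leaving out each array; the values for the second Itga1 probe under these were added after seeing the data.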

Additional observations from a re-analysis of the deposited data

How the results depend on the processing

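No subunit passed the adjusted threshold under any alternative run. The genes past it over the whole array, 1 as reported, were 0 with normexp, 2 with quantile normalization, 3 without the filter on dim probes, 7 with slide row as a block, 4 within slide row 1 and 0 to 28 with 1 array left out, 28 being without WT replicate 2. Subunits at an unadjusted p under 0.05, 1 as reported, were 2 with all probes of a gene averaged (Itga1 and Lama1), 0 when slide row was a block or only row 1 was fitted, and 0 to 5 with 1 array left out, 5 being without WT replicate 2. Deviations of same-numbered arrays from their genotype means had correlations of -0.068, -0.14 and -0.30. Deviations from a mean of so few arrays constrain each other, so this cannot decide whether the numbers pair the arrays. With the replicate number as a block, 0 genes passed the adjusted threshold and Lama1 stayed the 1 subunit at an unadjusted p under 0.05. That p was reached by 4.83% of genes with the block against 6.25% as reported. The log2 differences of named subunits that changed sign were, with normexp, Itga3 0.011, Itgax -0.021, Lamb2 0.0018 and Itgb8 0.13; with quantile normalization, Itga6 -0.0073, Itgax -0.018, Itgb5 -0.0029 and Lamc1 -0.011; and with the deposited value table, Itgax -0.0034. Blocking by slide row necessarily gives the same differences as fitting row 1 only, since row 2 holds no WT array. In row 1, FoxO1 +/- replicate 1 is the sole array of its genotype. The differences that changed sign there were Itgb6 0.049, Lamb3 0.12, Itga4 0.13, Itgal 0.085, Itgam 0.12, Itga2b -0.49, Itga1 -0.017, Lama4 -0.021 and Lamb1 -0.073. With 1 array left out the ranges that crossed 0 were Itga2 -0.094 to 0.23, Itga3 -0.23 to 0.058, Itga6 -0.068 to 0.20, Itgb4 -0.19 to 0.090, Lama3 -0.11 to 0.26, Lama5 -0.24 to 0.026, Lamb3 -0.22 to 0.21, Itga4 -0.16 to 0.026, Itgal -0.35 to 0.087, Itgam -0.22 to 0.059, Itgax -0.23 to 0.25, Itgb7 -0.14 to 0.17, Itga2b -0.22 to 0.31, Itgb3 -0.39 to 0.00040, Itga1 -0.043 to 0.080, Lama2 -0.078 to 0.34, Lama4 -0.067 to 0.18, Lamb2 -0.085 to 0.055, Itgb8 -0.37 to 0.080 and Lamc1 -0.059 to 0.11. Where an arm kept 1 or 2 arrays, limma pooled the spread. The cause was not tested. The class medians moved by less than the spread between arrays under all alternatives. The number of arrays limits the precision.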
